A study of Homo sapiens with 12 samples.

Results

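The mRNAs described here are those of the 3 IGF2BP paralogues IGF2BP1, IGF2BP2 and IGF2BP3, of LIN28B and of HMGA2, 5 of the 59385 gene names in the count table. They were chosen by name, as a set of oncofetal genes tied to the let-7 microRNAs, with earlier results of these data known. All 5 were among the 18166 genes with enough reads to be tested. The data are polysome-seq of HEK293T cells, a human embryonic kidney line, with and without knockdown of PRRC2B, an RNA-binding protein. Each of 4 groups held 3 libraries labelled as biological replicates: total RNA and polysome-associated RNA of a line carrying a non-silencing control shRNA (shCtrl), and the same fractions of a line carrying an shRNA against PRRC2B (shPRRC2B). The shRNAs were inducible by doxycycline, RNA was taken after 36 h of induction, and each line was a stable single clone, so that the shRNA and the clone cannot be told apart. Polysome RNA was pooled from the gradient fractions that held polysomes, and libraries of both kinds of RNA were poly(A)-enriched.

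IGF2BP proteins bind mRNAs in large cytoplasmic granules and protect them from decay or delay their translation. LIN28B blocks the maturation of the let-7 microRNAs, which silence mRNAs that carry matches to their seed. HMGA2, an architectural chromatin protein that bends AT-rich DNA, is among the classical let-7 targets, and most of these genes are active in the embryo, largely silent in adult tissues and active again in many tumours, while IGF2BP2 stays widely expressed in the adult.

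Libraries held 9855734 to 20837542 counts. PRRC2B, the targeted gene, fell in total RNA from 281 ± 28.7 CPM, the counts of a gene scaled to library size (SD, n = 3), in shCtrl to 100.3 ± 2.32 in shPRRC2B, a log2 change of -1.49 (adjusted p = 4.25e-06, edgeR). Of 7 HEK293T markers, 6 reached 1 CPM in total RNA, and their summed level was 685 to 763 CPM in shCtrl total RNA and 483 to 512 CPM in shPRRC2B total RNA. Among markers of other cell types, the 3 of fibroblasts summed to 20.0 to 25.6 CPM in shCtrl and 32.2 to 35.8 CPM in shPRRC2B total RNA, with 2 of them at 1 CPM or more. Those of leukocytes, endothelium and hepatocytes summed to at most 4.39 CPM in any total RNA library and at most 15.9 CPM in any polysome library, and no marker was at 0 in every library. The part of these differences in the results below was not tested, and in bulk RNA fewer cells of a type and less RNA per cell cannot be told apart.

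Sequence first shows what the 5 mRNAs share. The mature let-7a microRNA and its relatives carry one seed, bases 2 to 8, shown in capitals in 3 of the 11 mature human microRNAs of RefSeq that have it. The microRNAs themselves were not measured in these poly(A)-enriched libraries.
hsa-let-7a-5p: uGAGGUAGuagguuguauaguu
hsa-let-7i-5p: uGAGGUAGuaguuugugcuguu
hsa-miR-98-5p: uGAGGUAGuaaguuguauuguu

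The 3′ UTR of the canonical transcript (GENCODE 44, GRCh38) of every one of the 5 genes held at least 1 match to this seed, CTACCTC on the sense strand. The match nearest to the stop codon is printed for each gene, 22 bases read 5′ to 3′ along the mRNA, with the seed match in capitals. All 5 are followed by an A, which makes them 8-base matches. They lie at chr17:49051062-49051083 on the plus strand (IGF2BP1), chr3:185644220-185644241 on the minus strand (IGF2BP2), chr7:23311795-23311816 on the minus strand (IGF2BP3), chr6:105078813-105078834 on the plus strand (LIN28B) and chr12:65963299-65963320 on the plus strand (HMGA2).
IGF2BP1: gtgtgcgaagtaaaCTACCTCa
IGF2BP2: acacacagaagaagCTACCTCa
IGF2BP3: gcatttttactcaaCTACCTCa
LIN28B: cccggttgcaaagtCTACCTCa
HMGA2: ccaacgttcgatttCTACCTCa

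IGF2BP1 had 4 matches in a 3′ UTR of 6701 nt, LIN28B 4 in 4549 nt and HMGA2 4 in 2999 nt, while IGF2BP2 had 1 in 2401 nt and IGF2BP3 1 in 2153 nt. Of 20018 protein-coding genes, 9.52% had at least 1 match, and 20.9% of the 6009 whose 3′ UTR was at least 2000 nt long. No more than 12 genes had 4 or more matches, and 3 of those 12 were IGF2BP1, LIN28B and HMGA2. A match is a description of the sequence and does not show that let-7 acts there. The count for HMGA2 rests on the transcript used, because the longest 3′ UTR annotated for the gene belongs to another isoform, is 7421 nt long and held 0.

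**Figure D1:**
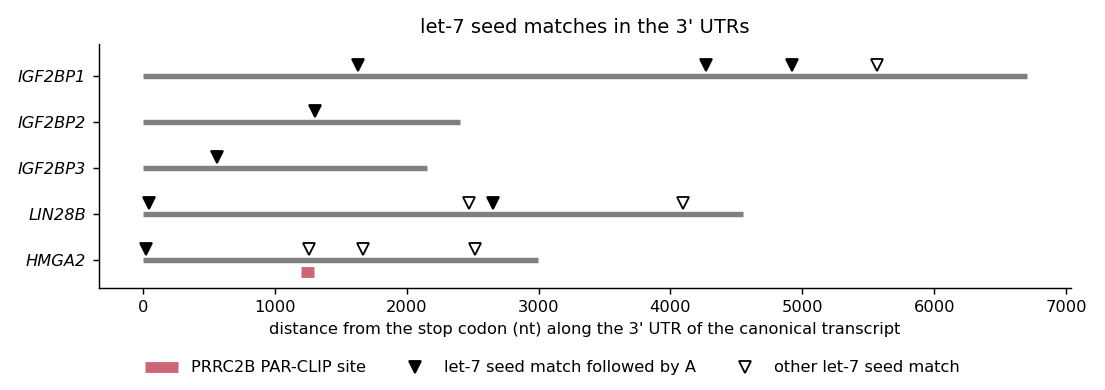
Grey bars show the 3′ UTR of the canonical transcript of each gene, with distance from the stop codon in nt on the horizontal axis. Triangles mark let-7 seed matches, filled where an A follows, and the red bar marks a PRRC2B PAR-CLIP site. IGF2BP1, LIN28B and HMGA2 carry 4 matches each, IGF2BP2 and IGF2BP3 1 each.

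Sites of PRRC2B itself were taken as positions from the PAR-CLIP site tables, a method that maps where a protein is cross-linked to RNA. All 5 gene names were looked up, and sites were found for IGF2BP1 and HMGA2 only. The IGF2BP1 site was mapped with full-length PRRC2B and overlaps one mapped with its P2 fragment, at chr17:48997508-48997607, while the HMGA2 site was mapped with the full-length protein only. The full-length site of IGF2BP1 lies in exon 1 within the 5′ UTR, at chr17:48997506-48997605 on the plus strand, and 69% of its 100 bases are C or T. At least 68 pyrimidines were found in 3.3% of all 100-base windows of 5′ UTRs. Its 30 most pyrimidine-rich bases, at chr17:48997530-48997559, hold 23 C or T, with the first of its longest unbroken runs in capitals.
IGF2BP1 5′ UTR: caCTTCTCCTgggctctccccgaactctcc
The HMGA2 site lies in exon 5 within the 3′ UTR, at chr12:65964489-65964588 on the plus strand, and 58% of its 100 bases are C or T. It contains the second let-7 seed match of that mRNA at its bases 46 to 67, counted from the start of the site and including the flanking bases shown. A let-7 seed match was found in 0.594% of all 100-base windows of 3′ UTRs. The 3′ UTR of HMGA2 is richer in them, with 4 in 2999 nt (1.33 per kb). A window within it therefore holds a match more often than that share.
HMGA2 let-7 match within the PAR-CLIP site: cccactactcaataCTACCTCt

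The translational efficiency (TE) of a gene is taken as its polysome level over its total level, and its TE change as that ratio in shPRRC2B over that in shCtrl. All 5 mRNAs had lower TE in shPRRC2B, by 2.47-fold to 3.28-fold, and all 5 had lower polysome levels. Their total RNA did not move alike: LIN28B rose by 1.07 on the log2 scale, IGF2BP1 rose by 0.52, IGF2BP2 had a change of 0.45 that missed the minimum, and IGF2BP3 and HMGA2 had changes of 0.07 and -0.08. Genes were called where edgeR's quasi-likelihood test gave a Benjamini-Hochberg adjusted p under 0.05 and the log2 change was past 0.5 in size. Both fractions shared 1 fit, so intervals and p-values of total RNA also carry the wider spread of polysome RNA, and the reverse. Lower TE was called for 16.4% of all genes tested and higher TE for 10.7%. Lower polysome RNA was called for 21.4% of them and higher total RNA for 14.9%. The polysome change of LIN28B (-0.54) was close to the minimum and stayed called in 4 of 12 fits that left out a library.

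IGF2BP1, the paralogue with the most RNA, stood at 222, 225 and 246 CPM in the shCtrl total libraries and at 350, 355 and 288 CPM in the shPRRC2B total libraries. In polysome RNA the levels were 29.9, 48.1 and 46.8 CPM in shCtrl and 22.01, 21.97 and 15.1 CPM in shPRRC2B. The lines did not overlap in either fraction, and they differed in opposite directions, higher in total RNA and lower in polysome RNA. The log2 polysome change was -1.07 (standard error (SE) 0.18, adjusted p = 1.52e-04, edgeR), where 21.4% of all genes tested were called lower. The log2 total RNA change of 0.52 (SE 0.17, adjusted p = 0.0234, edgeR) was close to the minimum. It stayed called in 2 of 12 fits that left out a library (those without replicate 3 of shCtrl or shPRRC2B total RNA) and fell to 0.32 with the trend on transcript length removed (adjusted p = 0.119, edgeR), and 14.9% of all genes were called higher. The TE change was -1.59 (SE 0.25, 95% confidence interval -2.11 to -1.07, adjusted p = 2.32e-04, edgeR).

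IGF2BP2, the paralogue known from metabolism and type 2 diabetes, was at 66.7, 71.2 and 67.4 CPM in shCtrl total RNA and at 92.3, 95.8 and 92.4 CPM in shPRRC2B. Its polysome levels were 11.9, 16.6 and 20.1 CPM in shCtrl and 11.1, 8.502 and 7.04 CPM in shPRRC2B. Again no library of one line lay within the range of the other, although the polysome ranges came within 1 CPM of each other. The log2 polysome change was -0.86 (SE 0.19, adjusted p = 0.00136, edgeR). The total RNA change of 0.45 had an adjusted p of 0.0349 in edgeR's test but was under the minimum of 0.5. The TE change was -1.31 (SE 0.25, interval -1.82 to -0.79, adjusted p = 9.68e-04, edgeR).

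IGF2BP3, the paralogue most used as a tumour marker, was at 51.1, 50.5 and 49.8 CPM in shCtrl total RNA and at 49.6, 57.2 and 51.7 CPM in shPRRC2B, and these ranges overlapped. In polysome RNA it was at 7.68, 18.2 and 15.9 CPM in shCtrl against 4.47, 6.21 and 2.57 CPM in shPRRC2B. The shPRRC2B polysome values rest on 52, 65 and 27 reads, the fewest of any of the 5 mRNAs. The log2 polysome change was -1.65 (SE 0.29, adjusted p = 1.86e-04, edgeR) and the TE change -1.71 (SE 0.37, interval -2.48 to -0.94, adjusted p = 0.00243, edgeR). The total RNA change was 0.07 (interval -0.41 to 0.54, adjusted p = 0.845, edgeR), and its sign turned with the libraries scaled by total counts and with the length trend removed. Exons of MALSU1, a gene of mitochondrial ribosome assembly on the opposite strand, overlap 17.8% of the exon bases of IGF2BP3. By the stated settings pairs were counted without strand and those overlapping several genes were left out. Pairs in the shared bases can therefore be missing from the count of IGF2BP3. MALSU1 had a TE change of 0.65 (adjusted p = 0.017, edgeR), a total RNA change of -0.55 and a polysome change of 0.10.

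LIN28B, the block on let-7 maturation, was at 65.2, 68.2 and 68.1 CPM in shCtrl total RNA and at 147, 143 and 134 CPM in shPRRC2B. Polysome RNA held 25.9, 46.0 and 34.7 CPM in shCtrl and 30.4, 26.7 and 16.1 CPM in shPRRC2B, and it was the one mRNA of the 5 whose polysome ranges overlapped. The total RNA change of 1.07 (SE 0.19, adjusted p = 4.15e-04, edgeR) stayed called in all 12 fits that left out a library. It was also called in all 12 other alternatives, of which dropping the minimum change could not remove a call. The polysome change of -0.54 (SE 0.21, adjusted p = 0.042, edgeR) was less stable: once the length trend was removed it was -0.21 (adjusted p = 0.406, edgeR). It was called without replicate 1 or 3 of shCtrl polysome RNA or replicate 1 or 2 of shPRRC2B polysome RNA, and not called without any other library. Its values ran from -0.84, with replicate 1 of shPRRC2B polysome RNA left out, to -0.39, with replicate 3 of that group left out, and it was -0.81 with replicate 1 of shCtrl polysome RNA left out. The TE change was -1.61 (SE 0.28, interval -2.20 to -1.02, adjusted p = 5.75e-04, edgeR). Its paralogue LIN28A had at most 5 reads in any library.

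HMGA2 was at 108, 108 and 117 CPM in shCtrl total RNA and at 108, 105 and 102 CPM in shPRRC2B, and the ranges overlapped. Its polysome levels were 40.1, 66.6 and 54.0 CPM in shCtrl and 24.1, 24.7 and 12.4 CPM in shPRRC2B, with every shPRRC2B library below every shCtrl library. The log2 polysome change was -1.39 (SE 0.21, adjusted p = 5.19e-05, edgeR), the total RNA change -0.08 (interval -0.49 to 0.33, adjusted p = 0.788, edgeR) and the TE change -1.31 (SE 0.29, interval -1.91 to -0.71, adjusted p = 0.00282, edgeR).

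**Figure D2:**
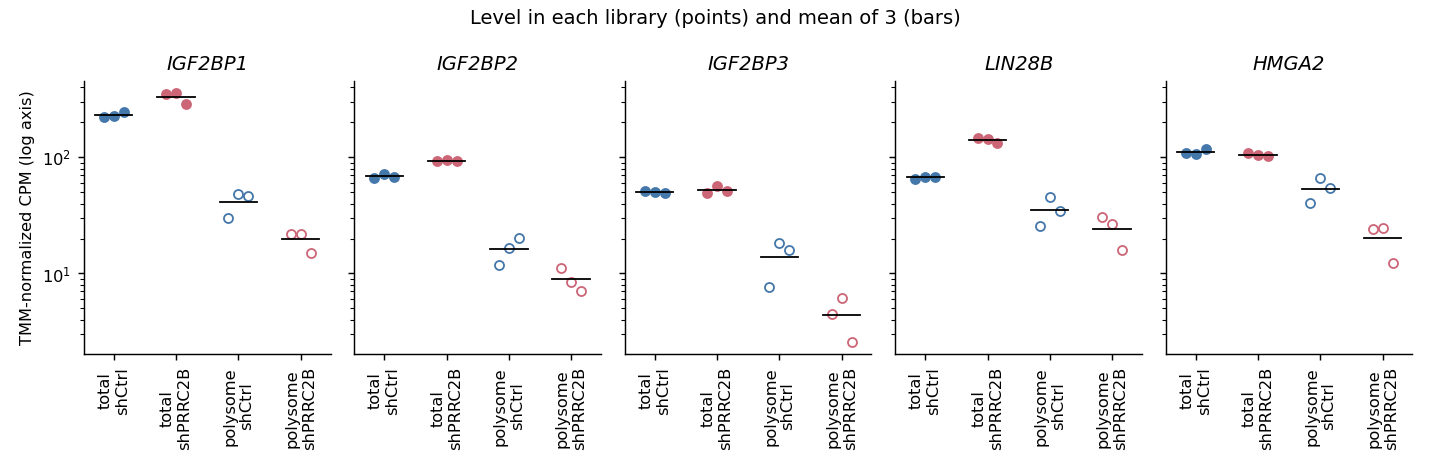
TMM-normalized CPM on a log axis for each of the 12 libraries (points, filled for total RNA and open for polysome RNA, in replicate order) with the mean of 3 as a bar. Polysome levels of shPRRC2B lie below those of shCtrl without overlap for 4 of the 5 mRNAs, and total RNA levels lie above without overlap for IGF2BP1, IGF2BP2 and LIN28B.

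In total, polysome ranges lay apart, lower in shPRRC2B, for 4 of the 5 mRNAs, as they did for 21.5% of all genes tested. Total RNA ranges lay apart, higher in shPRRC2B, for 3 of the 5, against 34.1% of all genes. Replicate 1 of shCtrl polysome RNA was the lowest of its group for every one of the 5 mRNAs, and replicate 3 of shPRRC2B polysome RNA the lowest of its own. Without the former the TE changes stayed called, as they did without the latter and without any other single library.

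**Figure D3:**
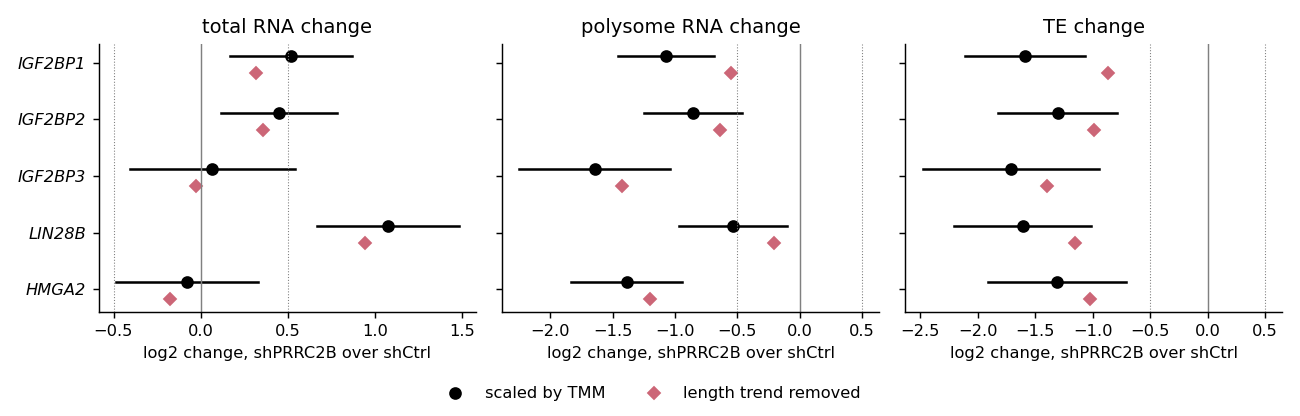
Log2 change of shPRRC2B over shCtrl in total RNA, polysome RNA and TE, with 95% confidence intervals (black, scaled by TMM) and the estimate after the trend on transcript length was removed (red diamonds). Dotted lines mark 0.5 and -0.5. All 5 TE changes lie below -0.5 on both scales, from -1.71 to -1.31 and from -1.40 to -0.87.

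On TMM-scaled levels each of the 5 mRNAs had a lower level in polysome RNA than in total RNA already in the control line. Against all genes tested, their edgeR ratios in shCtrl stood between the percentiles 12.34 (IGF2BP1) and 36.8 (LIN28B). The mean polysome level of IGF2BP1 was 17.6% of the total level in shCtrl and 5.89% in shPRRC2B. For IGF2BP2 it was 23.1% and 9.33%, and for IGF2BP3 25.9% and 7.86%. LIN28B and HMGA2 had the highest values of the 5, at 51.4% and 47.3% in shCtrl and at 16.7% and 18.5% in shPRRC2B. These percentages compare shares of 2 libraries and are not the share of an mRNA's copies that sit on polysomes.

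In edgeR's fit the log2 polysome-to-total ratio in shCtrl was -2.48 for IGF2BP1, -2.09 for IGF2BP2, -1.87 for IGF2BP3, -0.92 for LIN28B and -1.05 for HMGA2. All 5 were called lower in polysome RNA, as were 39.8% of all genes tested. The ratios in shPRRC2B were -4.07, -3.39, -3.58, -2.53 and -2.36 in the same order, and again all 5 were called lower, with 42.3% of all genes. Scaling by total counts, or by TMM within each fraction, moved the median ratio of all genes from -0.22 in both lines to -1.22 in shCtrl and -1.16 in shPRRC2B, so these ratios are read against other genes and not against 0. Long mRNAs had low ratios in general (Spearman's rho -0.564 with transcript length across 15762 genes in shCtrl, genes not being independent replicates). With the length trend removed, LIN28B in shCtrl was 0.26 and HMGA2 -0.28, neither called, while IGF2BP1, IGF2BP2 and IGF2BP3 stayed called lower at -0.78, -1.25 and -1.04.

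**Figure D4:**
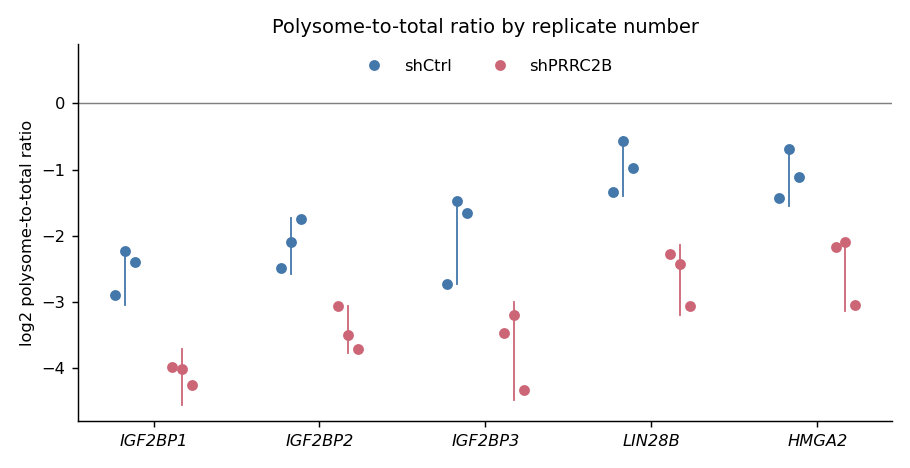
Log2 polysome-to-total ratio of TMM-normalized CPM in each line. Points are the 3 ratios by replicate number and lines span all 9 pairings of a polysome with a total library of the same line. For each of the 5 mRNAs the whole shPRRC2B range lies below the whole shCtrl range.

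Pairing every polysome library with every total library of its line gave the full range of ratios that these samples allow. For IGF2BP1 it ran from -3.04 to -2.21 in shCtrl and from -4.55 to -3.71 in shPRRC2B. The ranges of IGF2BP3 came closest, from -2.73 to -1.45 and from -4.48 to -2.998. For all 5 the ranges lay apart, lower in shPRRC2B, as for 16% of all genes tested.

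Transcript length moved with the TE change across all genes (Spearman's rho -0.408, 15762 genes with a known length, 86.8% of those tested), and the 5 canonical transcripts are long, between 4117 nt for HMGA2 and 8796 nt for IGF2BP1. Among the 5636 genes with a canonical transcript of at least 4000 nt, 35.8% had lower TE and the median TE change was -0.51, against -0.03 over all genes. Within those long genes the 5 TE changes stood between the percentiles 7.62 (IGF2BP3) and 17.2 (IGF2BP2). After removal of the length trend, the TE changes were -0.87 for IGF2BP1, -0.99 for IGF2BP2, -1.40 for IGF2BP3, -1.15 for LIN28B and -1.02 for HMGA2, with adjusted p (edgeR) of 0.0121, 0.0062, 0.0102, 0.00536 and 0.013. All 5 were still called lower. On that scale 9.68% of all genes tested were called lower in TE and 10.8% higher, and 14.1% of the long genes were called lower.

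Levels can be compared between the 5 genes only per length. With the summed length of all exons, total RNA in shCtrl ran from IGF2BP1 at 24.0 ± 1.33 CPM per kb (SD, n = 3) through IGF2BP2 (12.8 ± 0.46), LIN28B (11.3 ± 0.29) and HMGA2 (7.37 ± 0.34) to IGF2BP3 (5.91 ± 0.08), and no neighbours in that order overlapped. In shPRRC2B total RNA, LIN28B at 23.8 ± 1.16 CPM per kb stood above IGF2BP2 at 17.6 ± 0.37, with no overlap, and the other places were as in shCtrl. On polysomes, with the same lengths, LIN28B led in both lines, at 5.98 ± 1.70 CPM per kb in shCtrl, where it overlapped IGF2BP1 at 4.32 ± 1.06, and at 4.10 ± 1.25 in shPRRC2B, where it did not. IGF2BP3 was the lowest in all 4 groups. The place of HMGA2 depends on the length: with the 4117 nt of its canonical transcript in place of 15070 nt of exons, it was the highest in shCtrl total RNA, at 27.0 ± 1.26 CPM per kb, overlapping IGF2BP1 at 26.3 ± 1.46. On that scale HMGA2 also led on polysomes in both lines, at 13.0 ± 3.22 CPM per kb in shCtrl, with LIN28B at 6.52 ± 1.86 and no overlap, and at 4.95 ± 1.69 in shPRRC2B, overlapping LIN28B at 4.48 ± 1.37.

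Within the IGF2BP family, per length of all exons, IGF2BP1 made up 56.1 ± 1.69% of the family's total RNA in shCtrl (SD, n = 3), IGF2BP2 30.0 ± 1.30% and IGF2BP3 13.8 ± 0.57%. In shPRRC2B total RNA the shares were 59.0 ± 2.60%, 30.3 ± 1.93% and 10.7 ± 0.82%. On polysomes IGF2BP1 held 48.3 ± 1.75% in shCtrl and 48.5 ± 1.53% in shPRRC2B, and IGF2BP3 17.7 ± 3.21% and 11.98 ± 3.37%. These shares depend on the length used, since IGF2BP3 has 8535 nt of exons and a canonical transcript of 4274 nt. Of those exon bases 1521 nt are shared with MALSU1, where pairs can be missing from the count. Per kb of canonical transcript, shCtrl total RNA held IGF2BP1 at 26.3 CPM, IGF2BP2 at 16.0 and IGF2BP3 at 11.8. On shCtrl polysomes the levels were 4.73, 3.78 and 3.26 CPM per kb in the same order. On that scale the share of IGF2BP3 is larger.

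The genes whose log2 levels followed each mRNA most closely over the 12 libraries were taken from the 10046 genes averaging 10 CPM or more. The 12 libraries share their fraction and line, so that a high correlation needs no more than the same 4 group levels. For IGF2BP1 they were PM20D2, NCOR1 and EP300 (Pearson's r 0.998 for each), and for IGF2BP2 TET2, PROSER3 and RHOBTB3 (0.998 for each). For IGF2BP3 they included SLC41A1 and TGOLN2 (0.996 and 0.995). They were FAM222B, PLEKHB2 and MDM2 for LIN28B (0.991 to 0.997) and, for HMGA2, FNDC3A, CALU and ZNF148 (0.992 to 0.994). IGF2BP1 and IGF2BP2 had 240 and 259 genes with r of at least 0.99, and LIN28B and HMGA2 4 each. Among the 5 themselves the highest r was 0.997, between IGF2BP1 and IGF2BP2, and the lowest 0.875, between LIN28B and HMGA2.

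Genes known to act with these 5 were followed in lists chosen by function, with earlier results of these data known. The TE counts of each list stand beside shares over all genes tested of 16.4% lower and 10.7% higher. Those shares also cover genes without an annotated coding transcript. Among the 12096 tested genes with such a transcript and no let-7 seed match, 20% were lower and 9.66% higher. With the length trend removed 11.8% of these 12096 were lower. In the list of let-7 maturation and silencing, 10 of 17 tested genes had lower TE and 1 higher, with a median TE change of -0.79. AGO1, an Argonaute protein that carries the microRNA, had a TE change of -1.97 (adjusted p = 9.2e-04, edgeR). DICER1, which cuts the let-7 precursor, had -1.74 (adjusted p = 4.54e-05, edgeR) and DROSHA, which cuts the primary transcript, -1.68 (adjusted p = 2.24e-05, edgeR). PRKRA, a partner of DICER1, was the one higher gene, at 0.91. Once the length trend was removed the list held 4 lower genes (23.5%) and 2 higher, where all genes had 9.68% lower and 10.8% higher.

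Among 27 tested mRNAs known as let-7 targets (the 5 not counted), 18 had lower TE and 1 higher, with a median of -0.82. Over all genes tested, 16.4% were called lower in TE and 10.7% higher. The lowest were the cell cycle genes CCND2 at -1.97 (adjusted p = 4.78e-04, edgeR) and CDK6 at -1.86 (adjusted p = 2.8e-05, edgeR), and FIGN, a microtubule-severing enzyme, at -1.81 (adjusted p = 2.45e-04, edgeR). CDC34, a ubiquitin-conjugating enzyme, was higher at 0.55 (adjusted p = 0.0448, edgeR). The list held 1 higher gene when replicate 3 of shCtrl total RNA or replicate 1 of shCtrl polysome RNA was left out, and 0 without any other single library. In polysome RNA 16 were lower and 1 higher, where 21.4% of all genes were called lower and 18.4% higher. In total RNA 2 were lower and 6 higher, where 14.1% of all genes were called lower and 14.9% higher. With the length trend removed, 11 of the 27 (40.7%) had lower TE and 0 higher, against 9.68% and 10.8% of all genes. The median canonical transcript of this list was 5306 nt long, and that of all genes tested 3040 nt.

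By sequence alone, 27.6% of the 1513 tested genes with at least 1 let-7 seed match had lower TE (median -0.34), against 20% of the 12096 without (median -0.13). With the length trend removed the medians were 0.05 and -0.02. Of the 12 genes with 4 or more matches, the 9 besides IGF2BP1, LIN28B and HMGA2 held 6 with lower TE and 0 with higher, 7 with lower polysome RNA and 4 with higher total RNA. Over all genes tested 16.4% were called lower in TE, 10.7% higher, 21.4% lower in polysome RNA and 14.9% higher in total RNA. Among genes with a canonical transcript of at least 4000 nt, 35.8% had lower TE. These 9 had a median TE change of -0.82, and of -0.20 with the length trend removed, where 4 of the 9 were called lower. On that scale 9.68% of all genes and 14.1% of the long genes were called lower. TRIM71 at -1.77 and ZBTB37 at -1.75 were among the lower of these 9, and HEMK1 and LIMD2 had values of 0.23 and 0.26. The cut at 4 matches was chosen after the counts of the 5 genes were seen.

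Of 8 proteins found in IGF2BP granules, the mRNAs of 5 had lower TE and 0 higher, with a median of -1.12. PABPC1, the cytoplasmic poly(A)-binding protein, had -1.60 (adjusted p = 0.00248, edgeR), SYNCRIP, a granule partner of IGF2BP1, -1.55 (adjusted p = 6.43e-05, edgeR) and STAU1, a double-stranded RNA-binding protein, -1.31 (adjusted p = 5.81e-04, edgeR). On removal of the length trend 4 of the 8 (50%) were lower, against 9.68% of all genes. YBX1, a major mRNA packaging protein, had -0.19 (adjusted p = 0.61, edgeR).

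RNAs known to be bound by IGF2BP proteins were mixed, with 5 of 16 tested lower in TE, 2 higher and a median of -0.13. MKI67, the proliferation marker Ki-67, had -2.85 (adjusted p = 4.17e-07, edgeR), ACTB, the classical zipcode mRNA, -1.46 (adjusted p = 1.12e-04, edgeR) and BTRC, a ubiquitin ligase subunit, -1.36 (adjusted p = 0.00224, edgeR). The transcription factors E2F1 and SRF were higher, at 0.68 (adjusted p = 0.00899, edgeR) and 0.65 (adjusted p = 0.0317, edgeR). This count of 2 higher genes was 1 in 8 of the 12 fits that left out a library, namely those that left out any of the total RNA libraries, replicate 3 of shCtrl polysome RNA or replicate 1 of shPRRC2B polysome RNA. There were 3 lower (18.8%) and 3 higher once the length trend was removed, against 9.68% and 10.8% of all genes. IGF2, after which the family is named, and H19 were in the table at under 1 CPM and were not tested.

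In the insulin-like growth factor axis, 3 of 12 tested genes had lower TE and 0 higher, with a median of -0.36. They were the adaptor IRS4 at -1.78 (adjusted p = 3.05e-05, edgeR), the IGF2 scavenger receptor IGF2R at -1.40 (adjusted p = 3.66e-04, edgeR) and the signalling receptor IGF1R at -1.32 (adjusted p = 9.47e-05, edgeR). After removal of the length trend 1 of the 12 (8.33%) was lower and 1 higher, with 9.68% and 10.8% over all genes. Among 9 other high mobility group genes, 0 had lower TE and 2 had higher TE, HMGN3 at 1.05 (adjusted p = 0.00227, edgeR) and HMGN1 at 0.71 (adjusted p = 0.00937, edgeR), both nucleosome-binding proteins. With every gene of at least 1 count tested, 2 of the 9 were lower, and 1 was lower with the culture block, without shCtrl polysome replicate 1 or without shPRRC2B polysome replicate 1. Removing the length trend gave 1 lower and 1 higher. HMGA1, the paralogue of HMGA2, had a TE change of -0.37 (adjusted p = 0.131, edgeR), with polysome RNA at -0.36 and total RNA at 0.01. The median canonical transcript of these 9 genes was 1940 nt long. Of 7 antisense neighbours and let-7 host transcripts, 2 were tested and 0 were called in TE.

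**Figure D5:**
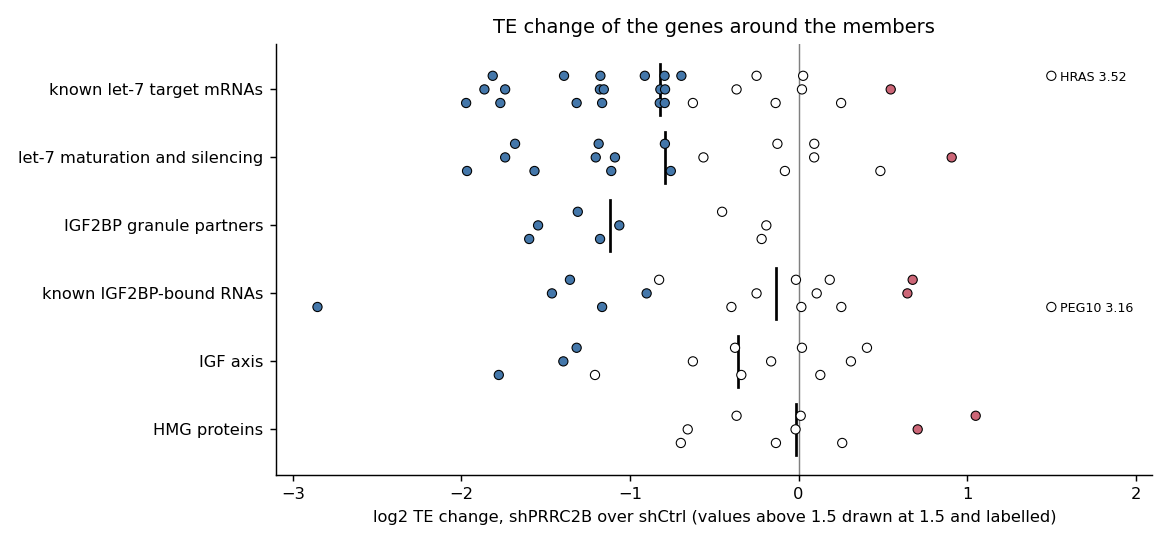
Log2 TE change (shPRRC2B over shCtrl) of each tested gene in 6 lists around the 5 mRNAs. Filled points were called lower (blue) or higher (red), open points were not called, and bars mark medians, which run from -1.12 for the granule partners to -0.02 for the HMG proteins.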

How the data were processed

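Polysome-seq counts of 12 libraries were analysed. According to the submitters' processing notes, the authors used bcl2fastq 2.19.0 to demultiplex reads, Trimmomatic 0.36 to trim them, HISAT2 2.1.0 to align them to GRCh38 and featureCounts of Subread 2.0.1 to count them per gene. By the stated settings read pairs were counted without strand, duplicates were ignored, and pairs overlapping several genes were left out. The deposited values are raw counts per gene name, not normalized. 5 empty columns were left out, and 0 columns held values of no library. Library totals ranged from 9855734 to 20837542 counts, and a low count such as 27 reads limits the precision of its value.

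Counts were filtered with filterByExpr (minimum count 10), scaled by TMM and fitted in 1 quasi-likelihood model of the 4 groups with edgeR 4.0.16 in R 4.3.3, with Benjamini-Hochberg adjustment over all 18166 genes. Calls needed an adjusted p below 0.05 and a change past 0.5 (log2). The TE change is the interaction of line and fraction. CPM values are TMM-normalized. The test was checked on simulated counts with the same relative spread of a gene in every library. That check does not cover the wider spread of polysome RNA in these data. Gene models, 3′ UTRs and lengths came from GENCODE 44, microRNAs from RefSeq, and positions of PAR-CLIP sites from the supplementary tables. Whether the replicate numbers pair libraries was checked from deviations from the group means. Over all pairs of groups, their correlations in same-numbered libraries ran from -0.199 to 0.163. Between total and polysome RNA of the same line they were 0.005 to 0.039 in shCtrl and 0.049 to 0.079 in shPRRC2B. Libraries of different number gave -0.092 to 0.058 and -0.068 to 0.019. With values this small the check cannot decide whether they share a culture. The main fit used no block, and blocks were run as alternatives. No libraries were duplicates (chi-square per degree of freedom at least 3.13 between replicates).

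The 5 genes and the lists were chosen with earlier results of these data known. Named genes were the 5, PRRC2B, up to 3 called genes per direction in each list with the largest TE change and a mean of at least 10 CPM, the 3 genes most correlated with each of the 5, and list members a sentence turns on. Genes that these rules would name but that are withheld are not reported here. MALSU1, ZBTB37, HEMK1 and LIMD2 were named after their values were seen. Alternatives were DESeq2 1.42.0, limma 3.58.1 on log2(CPM + 1), RLE factors, total counts, TMM within fractions, 2 other filters, blocks, removal of the length trend (lowess, span 0.3), no minimum change, 1 fraction or line alone, and each library left out.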

Additional observations from a re-analysis of the deposited data

Results flagged for a closer look

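The polysome-to-total ratio differed between the lines for each of the 5 mRNAs, as tested by the interaction of line and fraction in edgeR. The difference (shPRRC2B minus shCtrl, log2) was -1.59 for IGF2BP1, -1.31 for IGF2BP2, -1.71 for IGF2BP3, -1.61 for LIN28B and -1.31 for HMGA2.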

How the results depend on the processing

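The 5 TE changes stayed lower and called under all 12 alternatives and without each of the 12 libraries, between -0.86 for IGF2BP1 (length trend removed with the replicate block) and -2.05 for IGF2BP3 (1 library left out). Among the alternatives, dropping the minimum change keeps the main fit and could not remove a call. The total RNA change of IGF2BP1 was not called with total counts (0.44), TMM within each fraction (0.47), every gene with at least 1 count (0.48), at least 10 counts in every library (0.49), the length trend removed (0.32, and 0.31 with the replicate block) or 1 fraction alone (0.47), and ranged from 0.47 to 0.61 with 1 library left out. That of IGF2BP2 (0.45) was called with no minimum change. That of IGF2BP3 turned to -0.0085 with total counts, -0.0297 with the length trend removed and -0.0388 with the block as well. The polysome change of LIN28B was not called with total counts (-0.55), at least 10 counts in every library (-0.49), the length trend removed (-0.21 with or without the block) or 1 fraction alone (-0.55), and ranged from -0.84 to -0.39 with 1 library left out. The polysome-to-total ratio in shCtrl turned to 0.26 (0.24 with the block) for LIN28B and was -0.28 (-0.30 with the block) and not called for HMGA2 with the length trend removed. The cause was not tested. The labels do not say whether same-numbered libraries of a line share a culture. With a block for line and replicate number (the culture block) the 5 TE changes stayed called. The replicate block changed no call of the 5 (TE change of IGF2BP1 -1.58, of LIN28B -1.61), with 2807 genes of lower TE in place of 2981. That count was 1759 with the length trend removed and 1600 with the block as well, and the count of genes with higher TE, 1935, was 1285 without shCtrl total replicate 2. Counting only seed matches followed by A left 3 in IGF2BP1, 2 in LIN28B and 1 in HMGA2, and the longest annotated 3′ UTR of HMGA2 held 0. Depth limits IGF2BP3 most, with 27 to 65 reads in shPRRC2B polysome RNA.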
